A study of Mus musculus with 8 samples.

Results

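These are 35 nuclear genes for structural subunits of complex I of the mitochondrial respiratory chain, chosen as a list of gene symbols. All 35 were among the 34745 genes listed in the files, and all 35 passed the filter on low counts. They were measured by RNA-seq in subcutaneous tumours of C57BL/6J mice that had been injected with B16F10, a pigmented melanoma cell line of the same strain. The mice were fed a high cholesterol diet (HCD, 4 tumours, HCD 1 to HCD 4) or a normal diet (ND, 4 tumours, ND 1 to ND 4). All tumours came from the same cell line and host strain, and the labels give neither the age of the mice nor whether each tumour came from its own mouse, so p-values measure only how these samples vary, which could be technical.

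Complex I, or NADH:ubiquinone oxidoreductase, is the entry point of electrons from NADH into the respiratory chain. It passes electrons from NADH through a flavin and a chain of iron-sulfur clusters to ubiquinone and pumps protons across the inner membrane. It is L-shaped: the NADH module and the ubiquinone module form its matrix arm, and a proximal and a distal part form its membrane arm. A few core subunits carry the chemistry, and the many accessory subunits around them serve assembly and stability. The core subunits of the membrane arm are encoded in mitochondrial DNA, so the enzyme needs products of both genomes.

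Melanocyte markers were abundant in every library, with 8 of 8 tested and a summed level of 27248 to 30811 CPM in HCD and 28619 to 29965 CPM in ND (CPM, counts per library scaled to a common total). Total counts were 16137885 to 17722093 in HCD and 14599222 to 17637202 in ND. ND 2, ND 3 and ND 4 stood apart from the other 5 libraries: they had counts on 406 to 427 olfactory and vomeronasal receptor genes, against 8 to 13 in the HCD libraries and 11 in ND 1. Mitochondrially encoded genes took 12.2 ± 0.719% of counts in HCD and 14.0 ± 0.481% in ND (SD, n = 4 each; the exact permutation test, two-sided, gave its smallest possible value here, p = 0.0286). In bulk tumour RNA, fewer cells of a type and less RNA per cell cannot be told apart.

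Some of the 35 promoters share short DNA motifs of factors known to act on respiratory genes. RefSeq promoter windows (GRCm38.p6, 250 bases before to 50 after the start site) matched 32 of the 35 genes, in 34 windows, and each motif was searched on both strands. The letters GCGCANGCG, the core of the motif of NRF1, a nuclear respiratory factor, were found for 8 of the 32 genes (25%) and in 26.5% of the 34 windows, against 6.25% of all 32851 windows in the table. These 8 stretches are shown so that their shared core can be read. Each is written 5′ to 3′ on the strand of the gene, and capitals mark the match, which for Ndufa6, Ndufa8 and Ndufs6 reads as the motif on the other strand.
Ndufa11, plus strand of chr17:56717692-56717721: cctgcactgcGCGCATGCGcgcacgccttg
Ndufa5, minus strand of chr6:24527697-24527726: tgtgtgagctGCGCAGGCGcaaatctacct
Ndufa6, minus strand of chr15:82354248-82354277: cgtggcaccgCGCGTGCGCacgctgaaggg
Ndufa8, minus strand of chr2:36049348-36049377: tagagcagtgCGCTTGCGCgtcgctggaga
Ndufb10, minus strand of chr17:24724406-24724435: tcacctttctGCGCAGGCGtagaggtcccg
Ndufb4, minus strand of chr16:37654540-37654569: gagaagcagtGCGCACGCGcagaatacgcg
Ndufs5, minus strand of chr4:123718265-123718294: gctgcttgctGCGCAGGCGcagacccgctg
Ndufs6, minus strand of chr13:73328478-73328507: gactgctgtgCGCCTGCGCcggcacttggt

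The letters AAGATGGCG, part of the motif of YY1, a zinc-finger factor that also binds respiratory genes, were found for 5 of the 32 genes (15.6%) and in 14.7% of their windows, against 1.40% of all windows. All 5 matches lay 23 to 36 bases past the start site, in transcribed sequence, and all read in the same direction. The letters hold an ATG, and Ndufs6 carried both motifs, without overlap between them.
Ndufa9, minus strand of chr6:126849096-126849125: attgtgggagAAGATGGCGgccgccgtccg
Ndufc1, minus strand of chr3:51408914-51408943: cctgcggaacAAGATGGCGccgtccgtagt
Ndufs4, minus strand of chr13:114388045-114388074: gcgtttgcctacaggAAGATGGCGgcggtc
Ndufs6, minus strand of chr13:73328433-73328462: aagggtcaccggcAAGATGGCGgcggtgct
Ndufs7, plus strand of chr10:80249463-80249492: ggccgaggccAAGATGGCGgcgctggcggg

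The other 3 motifs searched were found in fewer of the members' windows. The letters CCGGAAG of ETS factors such as GABP were found for 4 genes, in 11.8% of the 34 windows, against 8.86% of all windows. The E-box CACGTG, which MITF and MYC bind, was found for 2 genes, in 8.82% of the 34 windows, against 7.15% of all windows. The letters CAAGGTCA of the oestrogen-related receptors were found for 1 gene, in 2.94% of the 34 windows, against 1.56% of all windows. A match of letters is a description of the window and does not show that a factor binds there. Ndufb5 and Ndufa1, the 2 genes with an unadjusted p under 0.05 between the diets, held none of these 5 motifs in their windows, which draws nothing about any factor. The 8 genes with the NRF1 letters had a median log2 fold change (HCD over ND) of 0.02, with 4 of 8 lower in HCD. The 24 genes without them had -0.10, with 18 of 24 lower. For the YY1 letters the medians were -0.06 with and -0.10 without. For the ETS letters they were -0.13 with and -0.07 without, and for the E-box -0.08 with and -0.08 without. The 1 gene with the oestrogen-related receptor letters was at -0.07, against a median of -0.08 without them. None of these splits was tested.

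The 35 genes differed widely in level. Levels between genes are given as CPM, scaled with TMM factors, per kilobase of the principal coding transcript. On that scale the mean over the 8 libraries ran from 1.77 for Ndufb4 to 307 CPM per kb for Ndufb9. Ndufb9, a distal arm subunit of the LYR family, had 196, 221, 239 and 201 CPM in HCD 1 to HCD 4, against 225, 223, 211 and 212 CPM in ND 1 to ND 4. Ndufa9, an accessory subunit beside the ubiquinone module, came next at 208 CPM per kb and had 276, 337, 307 and 303 CPM in HCD 1 to HCD 4, against 290.4, 269, 338 and 285 CPM in ND 1 to ND 4. The groups overlapped for both genes. Ndufa8, a proximal arm subunit with paired cysteine motifs, ranked 3 by the deposited FPKM and 6 per kilobase of transcript, and had 88.9, 101, 92.5 and 91.1 CPM in HCD 1 to HCD 4, against 94.3, 85.9, 92.6 and 79.4 CPM in ND 1 to ND 4.

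At the low end stood 4 genes below 6 CPM per kb, while the next, Ndufs4, was at 14.6. Ndufc1 was at 5.68, Ndufab1, the mitochondrial acyl carrier protein, at 4.53, and Ndufb2 at 3.32 CPM per kb. Ndufab1 and Ndufb2 have the longest principal transcripts of the 35, at 3479 and 4371 bases. Before division by length they were at 15.8 and 14.5 CPM, near Ndufs5 at 14.6 CPM and 21.5 CPM per kb. The place of Ndufab1 and Ndufb2 at the low end thus depends on the length used. Ndufb4, a distal arm subunit, had 1.38, 1.21, 2.19 and 1.42 CPM in HCD 1 to HCD 4, against 0.973, 2.71, 1.61 and 2.22 CPM in ND 1 to ND 4, from as few as 17 counts in a library. A processed pseudogene, Ndufb4c on chromosome 15, is 100% identical to it over 390 bases, so reads may be shared with that copy and the level of Ndufb4 is uncertain. Near-identical copies (at least 95% over at least 200 bases) were annotated for 8 of the 35 genes: Ndufa12, Ndufab1, Ndufb11, Ndufb3, Ndufb4, Ndufs3, Ndufs5 and Ndufs6. For Ndufs5, an intermembrane space subunit of the proximal arm, the copy BC002163 had 1155 counts over the 8 libraries, against 1938 for the gene itself.

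**Figure D1:**
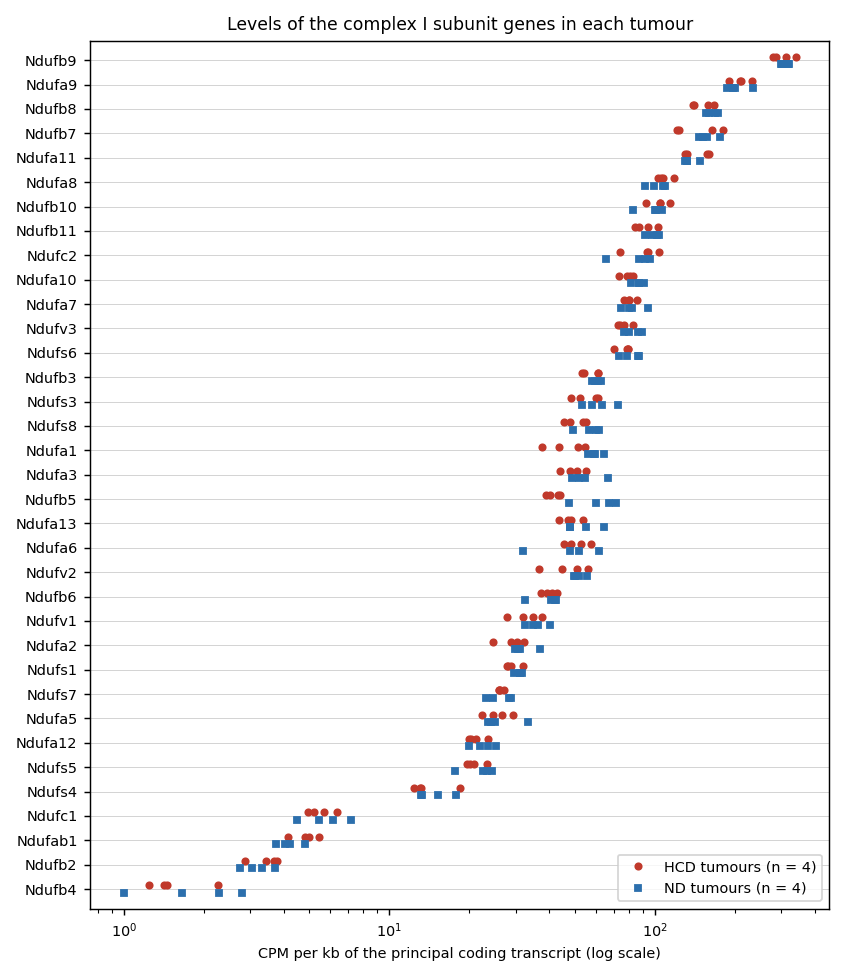
Level of each of the 35 complex I subunit genes in every tumour, as CPM per kb of the principal coding transcript on a log axis, with HCD tumours as red circles above ND tumours as blue squares. Ndufb9 is highest at a mean of 307 and Ndufb4 lowest at 1.77 CPM per kb, and within most genes the HCD and ND points overlap.

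The order of levels depended on the gene length used. The deposited FPKM divide by lengths that exceed the principal transcript by up to 7.81 times (Ndufb7, 4864 against 623 bases), and only 5 of the 35 lengths equal the summed exons of the gene in GENCODE M21. Ndufb7, a distal arm subunit, ranked 20 of 35 by FPKM and 4 per kilobase of transcript. Ndufb8, also of the distal arm, ranked 19 and 3. Ndufb5 ranked 30, at 8.58 FPKM, and 19, at 51.6 CPM per kb. Ndufb4 was lowest and Ndufb9 highest on both scales. The length is the same in all 8 libraries, so it cancels in the fold change of a gene, while offsets for length and GC content fitted per library do move fold changes and are given where they matter.

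The comparison of the diets asks whether complex I transcripts differed between tumours of HCD and ND mice. None of the 35 genes passed edgeR's quasi-likelihood test after Benjamini-Hochberg adjustment over all 13186 tested genes, where 0.182% (24 genes) did, and the smallest adjusted p among the 35 was 0.086. At an unadjusted p under 0.05, edgeR, DESeq2 and limma-voom each gave the same 2 of 35 (5.71%), Ndufb5 and Ndufa1, both lower in HCD, against 14.7% of all tested genes in either direction and 7.49% lower in HCD by edgeR. None of the 35 was higher at that level, against 7.21% of all tested genes. In what follows, lower and higher give the sign of the fitted log2 fold change of genes that did not pass. The fitted log2 fold change (HCD over ND) was below 0 for 25 of the 35 genes (71.4%), against 48.9% of all tested genes, and its median was -0.08 over the 35 and 0.0049 over all tested genes. The count of lower genes ran from 24 to 27 in every alternative fit, and all members share the same 8 libraries.

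Ndufb5 encodes a single-span accessory subunit of the distal membrane arm (ENSMUSG00000027673, chr3:32736990-32751566, mm10). It had 43.5, 42.0, 46.5 and 47.6 CPM in HCD 1 to HCD 4, against 76.9, 72.9, 64.8 and 51.2 CPM in ND 1 to ND 4. All 4 HCD values lay below all 4 ND values, and ND 4 was the ND library nearest to them. The means were 44.9 ± 2.61 CPM in HCD and 66.4 ± 11.3 CPM in ND (SD, n = 4 each), a log2 fold change of -0.57 (SE 0.12), which did not pass over all genes (edgeR quasi-likelihood test, unadjusted p = 0.000763, adjusted p = 0.086). DESeq2 passed it (adjusted p = 0.0021), among 3.31% of the genes it gave an adjusted p, and so did edgeR with no expression filter (adjusted p = 0.0431), among 0.406%. limma-voom did not (adjusted p = 0.101). Over the fits that leave out 1 library, the log2 fold change ran from -0.67 to -0.49 and the adjusted p from 0.0699 to 0.21.

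Ndufb5 shares 616 exon bases with Mrpl47, a mitochondrial ribosomal protein gene on the opposite strand, and since it is not known whether the counting used strand, reads of the pair may be mixed. Mrpl47 had 7.44, 6.42, 8.83 and 11.3 CPM in HCD 1 to HCD 4, against 7.32, 6.93, 7.22 and 7.70 CPM in ND 1 to ND 4. Its groups overlapped (log2 fold change 0.22, edgeR adjusted p = 0.627), and its fitted change ran the other way from that of Ndufb5.

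The 5 tested genes whose log2 CPM followed Ndufb5 most closely over the 8 libraries were Utp14a (Pearson r = 0.971), Ass1 (0.97), Pcx (0.968), Gm11110 (0.965) and Acta1 (0.952). These values describe the same 8 libraries, in which the difference between the diets is part of each correlation. Acta1 is skeletal muscle actin, and had 0.3, 0.242, 1.33 and 0.34 CPM in HCD 1 to HCD 4, against 12.4, 19.5, 3.58 and 0.625 CPM in ND 1 to ND 4. Of the list of 12 skeletal muscle markers 7 were tested by edgeR. All 7 were lower in HCD at an unadjusted p under 0.05 by edgeR, against 7.49% of all tested genes. These markers stand for a single tissue in the same 8 libraries, so they are not separate observations. At that level limma-voom gave 4 of 7 as lower, and DESeq2 gave 10 of the 12 that it fitted. After adjustment 0 passed by edgeR or limma-voom and 4 by DESeq2 (Acta1, Actn3, Tnnt3 and Ttn), against 3.31% of the genes DESeq2 gave an adjusted p. The other 5 markers (Myh1, Myh2, Tnnt3, Tnni2 and Pvalb) were under the edgeR filter. The summed level of the 12 markers, scaled by the library total, was 4.75 to 9.16 CPM in HCD and 6.03 to 97.5 CPM in ND, highest in ND 2, and Myh4 was at 0 in HCD 1 and HCD 4. By library the sums were 6.07, 4.75, 9.16 and 5.47 CPM in HCD 1 to HCD 4, against 59.2, 97.5, 15.4 and 6.03 CPM in ND 1 to ND 4. Within ND, Ndufb5 was highest in ND 1 and ND 2, where the muscle sums were highest, and lowest in ND 4, where the muscle sum was lowest. The log2 fold change of Ndufb5 was -0.49 without ND 1 and -0.52 without ND 2. The part of muscle RNA in the Ndufb5 values was not tested.

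Ndufa1 encodes a small X-linked subunit of the proximal membrane arm that is needed for assembly of the enzyme (ENSMUSG00000016427, chrX:37187588-37191163). It had 21.6, 15.8, 18.3 and 22.9 CPM in HCD 1 to HCD 4, against 25.001, 24.7, 23.5 and 27.1 CPM in ND 1 to ND 4. Every HCD value lay below every ND value, and HCD 2 was the lowest. Non-overlapping groups with HCD lower were found for 2 of the 35 genes (5.71%), Ndufb5 and Ndufa1, against 4.73% of all tested genes, and with HCD higher for 0 of 35, against 4.94%. The means of Ndufa1 were 19.6 ± 3.21 CPM in HCD and 25.1 ± 1.47 CPM in ND, a log2 fold change of -0.35 (SE 0.123, edgeR unadjusted p = 0.0166, adjusted p = 0.232). Its transcript of 419 bases is the shortest of the 35. With offsets for gene length and GC content the log2 fold change was -0.25 (unadjusted p = 0.0554 by edgeR), and without HCD 2 it was -0.26.

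**Figure D2:**
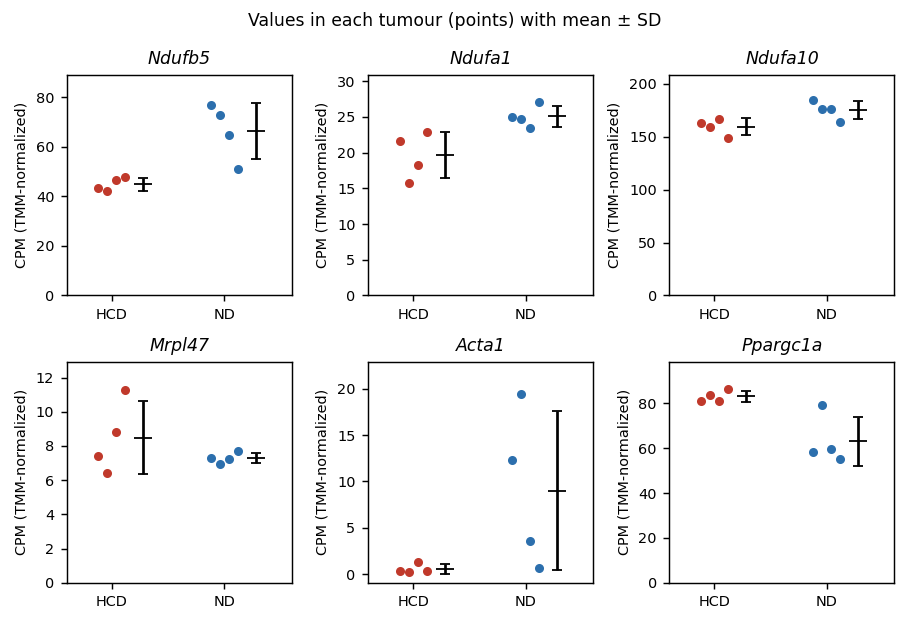
CPM in each tumour (points, HCD red and ND blue) with the mean and SD beside them, for 3 complex I genes, for Mrpl47, which overlaps Ndufb5, for the muscle gene Acta1 and for the coactivator gene Ppargc1a. The HCD and ND points do not overlap for Ndufb5, Ndufa1 and Ppargc1a, and Acta1 spreads from 0.625 to 19.5 CPM within ND.

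The core subunits carry the route of electrons. Ndufv1, which holds the flavin and the NADH site, had 46.3, 62.5, 52.9 and 57.8 CPM in HCD 1 to HCD 4, against 67.0, 57.8, 60.4 and 54.0 CPM in ND 1 to ND 4. Ndufv2, an iron-sulfur subunit beside it, had 62.0, 75.7, 95.5 and 86.9 CPM in HCD 1 to HCD 4, against 84.6, 94.3, 85.3 and 88.1 CPM in ND 1 to ND 4. Ndufs1, the largest subunit and a carrier of several iron-sulfur clusters, had 74.7, 76.4, 73.6 and 85.2 CPM in HCD 1 to HCD 4, against 82.9, 84.3, 82.6 and 78.3 CPM in ND 1 to ND 4. For each of these 3 genes the groups overlapped, and the log2 fold changes were -0.12, -0.14 and -0.08 (edgeR adjusted p = 0.645, 0.657 and 0.644). HCD 1 was the lowest of the 8 libraries for Ndufv1 and Ndufv2.

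In the ubiquinone module, Ndufs7, which holds the last cluster before ubiquinone, had 26.5, 25.4, 25.4 and 25.6 CPM in HCD 1 to HCD 4, against 27.7, 22.7, 24.1 and 28.2 CPM in ND 1 to ND 4. Its means were close, at 25.8 ± 0.506 CPM in HCD and 25.7 ± 2.72 CPM in ND, with a log2 fold change of 0.0036 and an SE of 0.0938. Ndufs8, an iron-sulfur subunit that feeds that cluster, had 48.3, 55.4, 53.8 and 45.9 CPM in HCD 1 to HCD 4, against 60.4, 49.5, 62.0 and 56.8 CPM in ND 1 to ND 4. Of the 6 core genes Ndufs8 had the largest difference, with a log2 fold change of -0.17 (SE 0.0951, edgeR adjusted p = 0.453) and overlapping groups. Ndufs3, which helps to form the module, had 62.6, 54.9, 63.9 and 50.6 CPM in HCD 1 to HCD 4, against 75.9, 66.5, 55.8 and 60.9 CPM in ND 1 to ND 4 and a log2 fold change of -0.16 (SE 0.112). Of the 6 core genes 5 were lower in HCD, none at an unadjusted p under 0.05, with a median log2 fold change of -0.13, against -0.07 over the 29 accessory genes, of which 20 were lower.

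By position in the enzyme, the matrix arm had 12 of 15 genes lower in HCD and the membrane arm 13 of 20. The NADH module had 9 of 10 genes lower in HCD, with log2 fold changes from -0.15 to 0.08 and a median of -0.09. Its largest difference was that of Ndufa2, an accessory subunit with a thioredoxin-like fold, which had 14.1, 16.5, 18.5 and 17.4 CPM in HCD 1 to HCD 4, against 21.2, 17.5, 17.1 and 17.8 CPM in ND 1 to ND 4. HCD 1 was lowest and ND 1 highest, and the other libraries overlapped. The 1 higher gene was Ndufa6, a LYR protein that binds the acyl carrier protein, at 30.1 ± 3.03 CPM in HCD and 28.5 ± 7.33 CPM in ND. Ndufv3, a small subunit beside Ndufv1 and Ndufv2, had 121, 131, 116 and 117 CPM in HCD 1 to HCD 4, against 141, 137, 126 and 121 CPM in ND 1 to ND 4. Ndufs4, whose loss destabilises the NADH module, spanned 21.0 to 31.4 CPM in HCD and 22.4 to 30.2 CPM in ND. Ndufs6, a zinc-binding subunit, spanned 39.8 to 45.04 CPM in HCD and 41.8 to 49.4 CPM in ND. Ndufa12, a paralogue of the assembly factor Ndufaf2, spanned 22.2 to 26.1 CPM in HCD and 22.2 to 28.1 CPM in ND, and Ndufa7 40.6 to 45.4 CPM in HCD and 39.4 to 49.9 CPM in ND. The groups overlapped for each of these genes. The ubiquinone module had 3 of 5 lower, with a median of -0.04. The higher ones were Ndufs7 and Ndufa9. Ndufa5, an accessory subunit of the matrix arm, spanned 19.5 to 25.7 CPM in HCD and 20.6 to 29.1 CPM in ND, with ND 4 the highest.

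The proximal membrane arm had 6 of 9 genes lower, with a median of -0.07. After Ndufa1 came Ndufa13, also known as GRIM-19, which had 58.8, 54.4, 67.0 and 60.5 CPM in HCD 1 to HCD 4, against 80.6, 60.1, 69.1 and 60.0 CPM in ND 1 to ND 4. Only ND 1 and ND 3 lay above the highest HCD value. Ndufa3, a small membrane subunit, was at 25.5 ± 2.47 CPM in HCD and 28.6 ± 4.06 CPM in ND. Ndufa10, a subunit with a nucleoside kinase fold, had 163, 159, 167 and 149 CPM in HCD 1 to HCD 4, against 185, 177, 176 and 164 CPM in ND 1 to ND 4. Its groups overlapped only at HCD 3, the highest HCD library, and ND 4, the lowest ND library (log2 fold change -0.14, SE 0.0638, edgeR unadjusted p = 0.0572, adjusted p = 0.36). Without HCD 3, without ND 4 or with offsets for length and GC, its unadjusted p was under 0.05, and it did not pass after adjustment in any fit. Ndufs5 spanned 13.3 to 15.9 CPM in HCD and 12.01 to 16.6 CPM in ND, and Ndufc1, a single-span subunit, 6.18 to 7.91 CPM in HCD and 5.61 to 8.98 CPM in ND. The higher genes of this arm were Ndufa8, Ndufa11 and Ndufc2, with log2 fold changes of 0.09, 0.09 and 0.10. Ndufa11, a multi-span subunit related to the import channel protein TIM17, spanned 71.0 to 86.9 CPM in HCD and 70.6 to 80.7 CPM in ND. Ndufc2 had 50.5, 63.8, 64.3 and 71.1 CPM in HCD 1 to HCD 4, against 44.9, 62.7, 65.5 and 59.8 CPM in ND 1 to ND 4, with ND 1 the lowest of the 8.

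The distal membrane arm had 7 of 11 genes lower, with a median of -0.07 and the widest range, from -0.57 for Ndufb5 to 0.21 for Ndufab1. Ndufab1, which also serves mitochondrial fatty acid synthesis, had 14.5, 16.8, 18.9 and 17.3 CPM in HCD 1 to HCD 4, against 13.0, 14.8, 14.1 and 16.7 CPM in ND 1 to ND 4, with ND 4 inside the HCD range (edgeR unadjusted p = 0.113, adjusted p = 0.468). Ndufb8, a single-span subunit, was at 103 ± 9.10 CPM in HCD and 112 ± 5.41 CPM in ND. Ndufb7, a cysteine-motif subunit of the intermembrane space, was at 91.9 ± 18.4 CPM in HCD and 98.6 ± 7.92 CPM in ND, and Ndufb3 at 43.9 ± 3.32 CPM in HCD and 46.1 ± 1.45 CPM in ND. Ndufb2, Ndufb6 and Ndufb10 were the other higher genes, with log2 fold changes of 0.10, 0.02 and 0.09. Ndufb10, another cysteine-motif subunit, spanned 67.6 to 83.8 CPM in HCD and 60.8 to 77.9 CPM in ND, and Ndufb6 24.5 to 28.2 CPM in HCD and 21.4 to 28.03 CPM in ND. Ndufb2 had 16.1, 12.5, 14.999 and 16.5 CPM in HCD 1 to HCD 4, against 11.96, 14.5, 13.3 and 16.2 CPM in ND 1 to ND 4, without separation of the groups. Its exons share 146 bases with Braf, a kinase gene with 7942 counts over the 8 libraries, against 1922 for Ndufb2, and Braf was at 53.9 ± 1.91 CPM in HCD and 65.9 ± 8.19 CPM in ND. Ndufb11, which is X-linked, was at 83.9 ± 7.48 CPM in HCD and 89.7 ± 4.93 CPM in ND. It shares 117 exon bases with Rbm10, an RNA-binding protein gene, which was at 69.6 ± 4.67 CPM in HCD and 53.8 ± 3.51 CPM in ND (log2 fold change 0.37, edgeR adjusted p = 0.087).

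**Figure D3:**
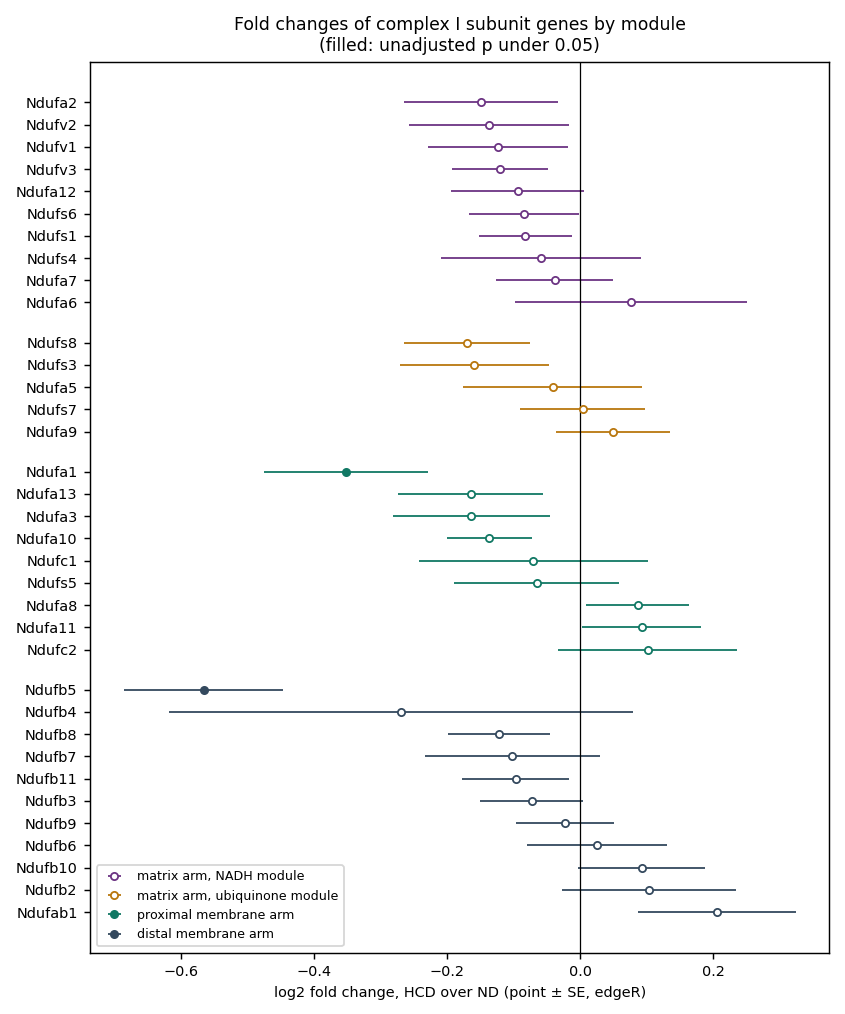
Log2 fold change (HCD over ND) with its SE from edgeR for the 35 genes, grouped by module from the NADH module at the top to the distal membrane arm at the bottom, filled where the unadjusted p is under 0.05. Only Ndufb5 at -0.57 and Ndufa1 at -0.35 are filled, and 25 of the 35 points lie left of 0.

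Exons of 14 of the 35 genes overlap those of another annotated gene. Without these and without genes with a near-identical copy, 17 genes were left, of which 12 were lower in HCD, with a median log2 fold change of -0.06. Without Ndufb5 and Ndufa1, 23 of 33 were lower, with a median of -0.07 and none at an unadjusted p under 0.05.

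The HCD libraries differed among themselves. HCD 1 held 4 of the 35 genes above their own 8-library mean, HCD 2 held 15, HCD 3 held 24 and HCD 4 held 17, against 23, 20, 20 and 22 in ND 1 to ND 4. HCD 1 was the low library, and HCD 3 had the most genes above the mean of all 8. The summed level of the 35 genes was 2072.5, 2275, 2318 and 2196 CPM in HCD 1 to HCD 4, against 2385, 2275, 2341 and 2251 CPM in ND 1 to ND 4. Without HCD 1 the median log2 fold change was -0.05, with 24 of 35 genes lower.

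ND 1 was the extreme library for 18 genes: it had the highest of the 8 values for 10 and the lowest for 8. Ndufa6 was at 18.8 CPM in ND 1, against 28.2 to 36.4 CPM in the other ND libraries and 26.9 to 33.8 CPM in HCD. Ndufa13 was at 80.6 CPM in ND 1, against 60.0 to 69.1 CPM in the other ND libraries and 54.4 to 67.0 CPM in HCD. With a term for the 3 ND libraries that had receptor gene counts, the diet contrast rested on ND 1 against the 4 HCD libraries, whose spread is taken to be that of the other libraries. In that fit 7 of 35 genes were at an unadjusted p under 0.05, against 11.3% of all tested genes. Of these 4 were lower by edgeR, with log2 fold changes of -0.78 for Ndufb5, -0.43 for Ndufa3, -0.42 for Ndufa13 and -0.39 for Ndufs3. The 3 that were higher were Ndufa6 at 0.68, Ndufc2 at 0.48 and Ndufb6 at 0.30. None of the 7 passed after adjustment in that fit (adjusted p from 0.339 to 0.442).

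**Figure D4:**
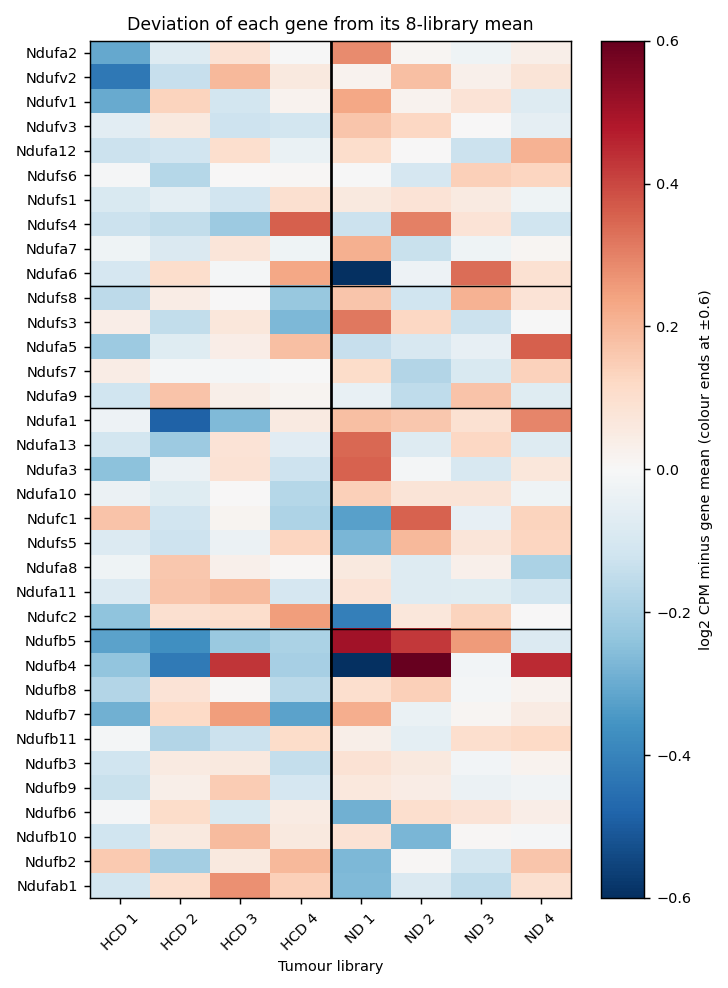
Log2 CPM of each gene in each library minus its mean over the 8 libraries, with HCD libraries left of the vertical line, ND libraries right of it, and horizontal lines between the modules in the order NADH, ubiquinone, proximal and distal arm. HCD 1 is below the mean for most genes, Ndufb5 is above it in ND 1 to ND 3, and ND 1 mixes high and low genes.

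Assembly factors of complex I, which build the enzyme and leave it, were divided between the directions. Of 18 tested factors 8 were lower and 10 higher in HCD, with a median log2 fold change of 0.02 and 0 passing after adjustment. By each of edgeR, DESeq2 and limma-voom 0 of the 18 were at an unadjusted p under 0.05, against 14.7% of all tested genes by edgeR. Tmem126b, a factor of the membrane arm, was at 9.64 ± 1.48 CPM in HCD and 7.78 ± 0.395 CPM in ND, Tmem186 at 16.4 ± 2.62 CPM in HCD and 13.1 ± 2.24 CPM in ND and Dmac2 at 16.2 ± 1.71 CPM in HCD and 18.3 ± 1.602 CPM in ND.

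Mitochondrially encoded complex I subunits had 5 of 7 transcripts lower in HCD, with a median log2 fold change of -0.17. The higher ones were mt-Nd6 (log2 fold change 0.27) and mt-Nd3 (0.18). By edgeR 3 of the 7 (mt-Nd1, mt-Nd4 and mt-Nd4l) were lower at an unadjusted p under 0.05, against 7.49% of all tested genes. After adjustment 0 passed by edgeR or limma-voom and 1 (mt-Nd1) by DESeq2, which passed 3.31% of the genes it gave an adjusted p. mt-Nd1, the core subunit next to the ubiquinone site, had 10786, 11664, 13569 and 14036 CPM in HCD 1 to HCD 4, against 18584, 16059, 13990 and 16544 CPM in ND 1 to ND 4 (log2 fold change -0.38, edgeR adjusted p = 0.153). HCD 4 lay just above ND 3, and the other 6 libraries were separated by diet.

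Nuclear subunits of complexes II to V had 28 of 39 genes lower in HCD (71.8%), beside 71.4% of the complex I genes and 48.9% of all tested genes. Their median log2 fold change was -0.05, beside -0.08 for the complex I genes. At an unadjusted p under 0.05 by edgeR, 5 were lower and 2 higher, against 7.49% and 7.21% of all tested genes. After adjustment 0 passed by edgeR or limma-voom and 1 (Uqcr11) by DESeq2, which passed 3.31% of the genes it gave an adjusted p. Uqcr11, a complex III subunit, was at 60.0 ± 4.19 CPM in HCD and 48.8 ± 2.60 CPM in ND, Uqcrh, of the same complex, at 133 ± 9.85 CPM in HCD and 162 ± 19.0 CPM in ND, and Atp5c1, the gamma subunit of ATP synthase, at 324 ± 22.3 CPM in HCD and 368 ± 17.7 CPM in ND. A difference between the complexes was not tested.

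Among 16 tested regulators of nuclear respiratory genes, 4 were lower and 12 higher in HCD, with a median log2 fold change of 0.06. At an unadjusted p under 0.05 by edgeR, 1 was lower and 2 were higher, against 7.49% and 7.21% of all tested genes. After adjustment 0 passed by edgeR and limma-voom. By DESeq2 2 of the 18 it fitted passed (Gabpb1 and Ppargc1a), against 3.31% of the genes it gave an adjusted p. Nrf1 itself was at 30.1 ± 0.574 CPM in HCD and 30.3 ± 3.40 CPM in ND and Yy1 at 60.7 ± 7.14 CPM in HCD and 59.1 ± 3.64 CPM in ND. Ppargc1a encodes PGC-1alpha, a coactivator of respiratory genes and a known target of MITF in melanoma cells. It had 81.1, 83.8, 81.0 and 86.2 CPM in HCD 1 to HCD 4, against 58.4, 79.3, 59.5 and 55.1 CPM in ND 1 to ND 4. All HCD values lay above all ND values, with ND 2 the nearest (log2 fold change 0.40, edgeR unadjusted p = 0.0046, adjusted p = 0.147). The related Ppargc1b was at 8.99 ± 0.876 CPM in HCD and 6.42 ± 1.58 CPM in ND, and Gabpb1, a subunit of the ETS factor GABP, at 26.2 ± 2.64 CPM in HCD and 34.1 ± 3.66 CPM in ND. Mitf passed the test over all genes, with 453 ± 51.3 CPM in HCD and 251 ± 34.3 CPM in ND (log2 fold change 0.85, edgeR adjusted p = 0.0459), a call kept without ND 2 and lost on leaving out any other library (adjusted p from 0.0311 to 0.138 by edgeR, log2 fold change from 0.77 to 0.93). The call was also lost with the term for the libraries with receptor gene counts (log2 fold change 0.79, edgeR adjusted p = 0.339), with the replicate block (0.86, adjusted p = 0.106) and with the block and the offsets together (0.79, adjusted p = 0.0811).

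Markers of other tumour cells mostly had a higher fitted level in HCD, while 48.9% of all tested genes were lower in HCD. Of the summed levels, only that of the endothelial markers did not overlap between the diets. Macrophage markers were higher in HCD for 9 of 10 tested genes and summed to 491 to 644 CPM in HCD and 322 to 533 CPM in ND. Endothelial markers were higher for 6 of 6 and summed to 84.9 to 95.8 CPM in HCD and 61.8 to 82.7 CPM in ND. Fibroblast markers were higher for 6 of 6 tested and summed to 67.3 to 284 CPM in HCD and 51.6 to 265 CPM in ND. Red cell markers, higher for 5 of 5, summed to 109 to 1344.5 CPM in HCD and 108 to 1126 CPM in ND, and the 6 T cell markers, of which 2 were tested, to 3.39 to 5.25 and 0.887 to 5.18 CPM. None of the markers in these 5 lists passed after adjustment by edgeR or limma-voom. By DESeq2 1 (Mrc1) passed, against 3.31% of the genes it gave an adjusted p. By edgeR 7 were at an unadjusted p under 0.05. These were 4 macrophage and 3 endothelial genes, all higher in HCD, where 7.21% of all tested genes were higher at that level. The fibroblast, red cell and T cell lists had 0 by edgeR. The sums are scaled by library totals, and their part in the complex I values was not tested.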

How the data were processed

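CASAVA 1.8, TopHat2 2.0.9, HTSeq, edgeR and the build mm10 are named, without role, by the submitters' processing notes. Whether the counting used strand, and which annotation, is not given there. Per the file headers, the authors deposited whole-number counts per Ensembl gene, with no normalization, and FPKM, which are those counts scaled by gene length and library total, as tested on the values. Members and lists were chosen with earlier results of these data known.

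Symbols and coordinates came from GENCODE M21 (34267 of 34745 genes named), overlaps from bedtools 2.31.1, copies from blastn 2.17.0, and promoters from RefSeq. The counts were tested with edgeR 4.0.16 (R 4.3.3; quasi-likelihood, TMM, filterByExpr with minimum count 10 and total 15, diet as the only term) on all 8 libraries, with Benjamini-Hochberg adjustment over 13186 genes and a threshold of 0.05. SEs were taken from the fold change and its F statistic. log2 CPM used a prior count of 2. The fit was tested on simulated counts. The number of libraries and the counts limit precision, and all intervals of spread are SDs over 4 libraries. Alternatives were other scaling, filter, dispersion and tools (DESeq2 1.42.0, limma 3.58.1), leaving out each library, a replicate block, offsets for length and GC (known for 99.7% of tested genes), a term for libraries with over 100 receptor genes counted, and leaving out mitochondrial genes and their nuclear copies.

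Values in every library are given for members at an unadjusted p under 0.05, the 6 core subunits, the highest and lowest 3 by FPKM and the largest differences per module. Of other lists, at most the 3 with the smallest p are named. Of the genes that overlap a member, only Mrpl47, Braf and Rbm10 are described. Also named, outside these rules, are Myh4, the muscle markers under the edgeR filter, mt-Nd6 and mt-Nd3. Ndufa10, Nrf1, Yy1 and Mitf, and further members given as means, were added after their values were seen.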

Additional observations from a re-analysis of the deposited data

Results flagged for a closer look

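Of 70 sets of 4 values (35 genes in each diet), 3 held a library far from the other 3, by Dixon's ratio of gap to range at its 95% critical value. Chance alone flags about 1 in 20 such sets, so 3 of 70 is within what chance gives. Ndufs4, a NADH module subunit, was at 31.4 CPM in HCD 4, against 21.0 to 22.4 CPM in the other HCD libraries. Ndufs6, a zinc-binding subunit of the same module, was at 39.8 CPM in HCD 2, against 44.5 to 45.04 CPM in the other HCD libraries. Ndufa5, of the ubiquinone module, was at 29.1 CPM in ND 4, against 20.6 to 21.9 CPM in the other ND libraries.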

How the results depend on the processing

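The count of complex I genes lower in HCD (24 to 27 of 35) and their median log2 fold change (-0.10 to -0.05) kept their direction in all alternatives run. No complex I gene passed over all genes, except Ndufb5 in DESeq2 and with no expression filter (1 each). Over all genes, edgeR called 24 genes, against 93 with no filter, 50 with robust dispersion, 6 with length and GC offsets, 5 with the term for libraries with receptor gene counts and 4 without mitochondrial genes, while DESeq2 called 428. Leaving out 1 library gave 0 to 12 calls for all genes (0 without HCD 4 or without ND 4, with 1516 and 1603 at an unadjusted p under 0.05) and 0 for complex I genes. With the replicate block 0 genes were called, alone (1634 at an unadjusted p under 0.05) or with the offsets (1705). Same-numbered libraries deviated with correlations of -0.0676 to 0.107, within the -0.277 to 0.201 of differently numbered ones. These values show no pairing by number, and with 4 libraries per diet they cannot exclude one. The cause of these moves was not tested.

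No fold change that turned sign passed in either fit. Ndufs7 was at -0.0035 with upper-quartile factors, and Ndufb9 at 0.0545 with the offsets and 0.0547 with block and offsets. With the term, Ndufa5 was at 0.13, Ndufa8 at -0.0126, Ndufa11 at -0.0334, Ndufb4 at 0.67, Ndufb10 at -0.0341, Ndufc1 at 0.30, Ndufs4 at 0.115, Ndufs5 at 0.25 and Ndufs7 at -0.107. Leaving out 1 library turned Ndufa5 (-0.111 to 0.0851), Ndufb9 (-0.0835 to 0.0137), Ndufs7 (-0.0507 to 0.0514), Ndufa9 (-0.0013 to 0.119), Ndufb6 (-0.0583 to 0.0639), Ndufs4 (-0.209 to 0.0392), Ndufa6 (-0.0796 to 0.217), Ndufa7 (-0.0862 to 0.031), Ndufc2 (-0.0052 to 0.187) and Ndufc1 (-0.178 to 0.049).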
